A study of Mus musculus with 4 samples.

Results

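Dense distal clusters are stretches of the genome where several open chromatin regions far from promoters lie close together. Here at least 4 regions, each open in every tumor profiled, had to follow one another with gaps of at most 12.5 kb. The rule gave 2453 regions in 525 clusters, out of 122166 regions found in the series, 48089 open in all 4 libraries and 27013 of those that were distal. Distal meant autosomal, with a midpoint 2 to 200 kb from the nearest GENCODE M21 protein-coding start, and overlapping no coding sequence. Members were thus chosen by measured values, namely the presence of a peak in all libraries and the spacing of regions, and the number, size and position of clusters are given as a description.

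ATAC-seq, which marks open chromatin by where a transposase inserts adapters, was run on brain tumors of mG7080, a murine glioblastoma line, in C57BL/6 hosts. The hosts were either Esm1 KO (2 tumors) or WT (2 tumors), and the line injected was the same in both. Esm1 encodes Endocan, which endothelial cells secrete, and it is the host that lacks it. The labels speak of tumor tissue and the study's methods of freshly isolated tumor cells, so how many host cells entered the libraries is not known, and fewer cells of a type and a less open region per cell cannot be told apart. The labels describe separate tumors, but p-values measure only the spread between these 4 libraries.

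Clusters of open distal chromatin often contain enhancers, short elements that raise transcription of a gene at a distance through bound transcription factors. Genes that define a cell's identity or that respond quickly to signals are known to lie beside dense groups of enhancers, and 12.5 kb is a distance commonly used to stitch enhancers into one unit. Openness away from protein-coding promoters has other sources too, among them the promoters of noncoding genes. Small RNA genes, such as those of tRNA and of the U1 and U2 spliceosomal RNAs, often stand in arrays of near-identical copies.

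The tallest clusters lay over such arrays. On chromosome 6 of GRCm38 (mm10), 2 clusters named here by their nearest coding genes, Ezh2 and Pdia4, spanned copies of Rn4.5s, the gene of a rodent 4.5S RNA. The RefSeq annotation of GRCm38.p6 gives 1 copy of 174 bp, chr6:47654921-47655094 on the minus strand. The sequences are shown because nearly the same start site recurs along both clusters. The first is chr6:47655065-47655164 and the second chr6:47744202-47744301, both on the minus strand of GRCm38, with the first 30 bases of the RNA gene in capitals.
annotated Rn4.5s copy: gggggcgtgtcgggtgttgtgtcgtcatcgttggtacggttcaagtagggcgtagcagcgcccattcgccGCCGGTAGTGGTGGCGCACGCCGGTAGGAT
tallest Pdia4-side copy: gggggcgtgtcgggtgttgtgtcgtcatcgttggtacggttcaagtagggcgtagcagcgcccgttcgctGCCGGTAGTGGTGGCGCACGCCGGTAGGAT

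Counted from 1 at the 5′ end of these windows, the copy beside Pdia4 differs from the annotated one by 2 substitutions, A64G and C70T, both upstream of the RNA. The cluster nearest to Eapp on chromosome 12 held 6 regions, each over an annotated U1 RNA gene. Its windows are shown with the 74 bases shared by all 6 regions in capitals. On GRCm38 they are chr12:54710378-54710491 (plus strand), chr12:54714288-54714401 (plus), chr12:54719143-54719256 (minus), chr12:54729692-54729785 (plus), chr12:54734535-54734648 (minus) and chr12:54738439-54738546 (minus).
U1 region 1: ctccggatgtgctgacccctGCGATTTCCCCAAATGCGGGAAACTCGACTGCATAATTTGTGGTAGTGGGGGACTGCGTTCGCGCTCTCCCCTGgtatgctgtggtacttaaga
U1 region 2: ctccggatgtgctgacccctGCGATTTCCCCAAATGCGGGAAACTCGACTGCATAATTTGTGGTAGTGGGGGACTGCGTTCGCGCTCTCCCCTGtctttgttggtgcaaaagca
U1 region 3: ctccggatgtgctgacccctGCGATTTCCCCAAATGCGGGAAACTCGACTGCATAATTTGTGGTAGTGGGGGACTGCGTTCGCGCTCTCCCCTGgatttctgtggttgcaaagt
U1 region 4: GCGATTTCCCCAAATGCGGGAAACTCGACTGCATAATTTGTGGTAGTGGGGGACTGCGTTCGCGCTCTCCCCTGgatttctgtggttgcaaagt
U1 region 5: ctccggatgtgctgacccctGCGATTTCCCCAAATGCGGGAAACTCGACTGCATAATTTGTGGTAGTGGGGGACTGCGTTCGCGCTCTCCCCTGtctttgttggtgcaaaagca
U1 region 6: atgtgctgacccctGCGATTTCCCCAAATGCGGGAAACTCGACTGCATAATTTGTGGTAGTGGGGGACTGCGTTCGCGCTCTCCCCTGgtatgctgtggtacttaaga

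The 20 bases after the shared stretch were the same in regions 1 and 6, in regions 2 and 5 and in regions 3 and 4, and each such pair had opposite strands. A tRNA cluster lay nearest to Abt1 on chromosome 13, where all 5 regions overlapped tRNA genes, 7 in all. A selection of these genes follows as RefSeq gives them, all on the minus strand of GRCm38, with letters matching GTTCGANNC in capitals. These letters correspond to the B box, the inner promoter element that TFIIIC binds in tRNA genes. The genes are an alanine tRNA at chr13:23438697-23438768, a valine tRNA at chr13:23446142-23446214 and an arginine tRNA at chr13:23446792-23446864.
n-TAcgc10: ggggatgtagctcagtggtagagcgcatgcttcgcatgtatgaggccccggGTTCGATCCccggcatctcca
n-TVcac9: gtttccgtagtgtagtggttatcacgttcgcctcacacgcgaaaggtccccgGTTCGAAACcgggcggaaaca
n-TRacg5: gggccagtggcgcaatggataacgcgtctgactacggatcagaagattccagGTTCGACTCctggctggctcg

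All 3 mouse genes of miR-9, a microRNA of neural progenitors and of the developing brain, lay inside the span of a dense cluster. The hairpins are from RefSeq (GRCm38.p6), with mature miR-9-5p in capitals, and show that the genes carry the same mature sequence on 3 chromosomes. They lie at chr3:88215598-88215686, chr13:83738814-83738885 and chr7:79505264-79505353, all on the plus strand. The last line is the mature miRNA with its seed, bases 2 to 8, in capitals.
Mir9-1: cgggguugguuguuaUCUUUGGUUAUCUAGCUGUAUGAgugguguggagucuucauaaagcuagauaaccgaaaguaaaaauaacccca
Mir9-2: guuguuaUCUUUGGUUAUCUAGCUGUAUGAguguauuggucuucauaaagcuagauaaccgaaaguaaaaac
Mir9-3: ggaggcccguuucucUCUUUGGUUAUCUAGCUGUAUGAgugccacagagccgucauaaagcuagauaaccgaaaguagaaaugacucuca
mmu-miR-9-5p: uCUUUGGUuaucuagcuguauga

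Most clusters were short. Of the 525 clusters, 330 had 4 regions, 114 had 5, 46 had 6 and the rest had 7 to 12. The median span was 25.7 kb (from 6.04 to 77.7 kb) and the median gap within a cluster 6.31 kb. Together the spans covered 14.3 Mb, or 0.595% of the assembled autosomal bases. The median height in chains of 4 was 6.77 times the genome background, against 6.56 times in the 982 chains that stopped at 3 regions, just outside the rule. The widest gap inside a cluster was 12499 bp and the narrowest that separated regions was 12501 bp. The shallowest library set much of this number, because without WT replicate 1 the rule gave 5380 regions in 1106 clusters, with 2446 of the 2453 among them.

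**Figure D1:**
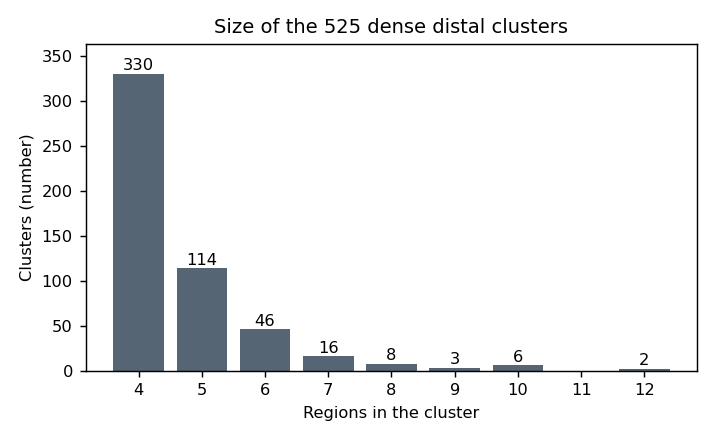
Number of clusters (vertical axis) by the number of regions in the cluster (horizontal axis), for the 525 dense distal clusters. Clusters of 4 regions make up 330 of them, and 2 clusters hold 12 regions.

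The share of distal regions open in all 4 libraries that belonged to a dense cluster ran from 5.31% on chromosome 16 to 12.7% on chromosome 12 and 14.7% on chromosome 15. Of the regions in dense clusters 49.5% had their midpoint in a coding gene body, against 52.9% of isolated distal regions, those with no other within 12.5 kb. Noncoding gene starts lay within 1 kb of 6.03% of them, against 4.62% of isolated regions. Small RNA genes were overlapped by 1.88% against 0.480%, tRNA genes by 0.938% against 0.250% and snRNA genes by 0.652% against 0.0744%. Elements that RefSeq lists as enhancers were overlapped by 0.978% against 0.453%. A coding start lay inside 44 of the 525 spans (8.38%). These shares are descriptions, since regions of a cluster share their surroundings and are not replicates.

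Genes beside dense clusters had open promoters in most cases. Of the 617 protein-coding genes nearest to a member, 491 (79.6%) had a promoter peak, within 1000 bp of a start, in all 4 libraries. The share was 72.8% for genes nearest to other distal regions open in all 4 libraries and 61.9% for all 20780 autosomal coding genes.

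The files give no read counts, so values are peak heights in read ends, recovered from the deposited fold and p-value. The 4 libraries held 82975 and 85418 peaks in KO replicates 1 and 2, against 63000 and 100088 in WT replicates 1 and 2. The genome background, the lowest background beside any peak and a measure of depth, was 6.03 and 6.71 read ends in the KO libraries, against 4.41 and 6.85 in the WT libraries. Heights in WT replicate 1 therefore tended to be lower. Heights given in read ends are not adjusted for depth, also where KO and WT are set side by side. Adjusted levels are given over this background or relative to the library median. The highest peak, by contrast, held 382 and 384 read ends in KO and 375 and 382 in WT, so the tallest peaks did not scale with the background and their ratio to it is highest in WT replicate 1.

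Regions in dense clusters were somewhat taller than isolated distal regions in every library. The median height over genome background in dense clusters was 6.97 and 6.41 in KO replicates 1 and 2 and 6.80 and 7.45 in WT replicates 1 and 2. In isolated regions it was 5.81 and 5.36 in the KO and 5.66 and 6.13 in the WT libraries. On the log2 scale dense regions exceeded isolated ones by 0.27 ± 0.01 (SD, n = 4 libraries), in 4 of 4 libraries. This is a description with no test, because a peak is listed by its height over the local background and the rule asks for a peak in every library.

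The background around dense regions was raised as well. The local background was a median of 1.68 and 1.61 times the genome background in the KO libraries and 1.56 and 1.79 times in the WT libraries, against 1.12 and 1.09 times in KO and 1.05 and 1.16 times in WT for isolated regions, a log2 difference of 0.59 ± 0.03 (SD, n = 4 libraries). The deposited fold over local background ran the other way, with medians of 3.76 and 3.58 in KO and 3.76 and 3.80 in WT for dense regions and 4.27 and 4.10 in KO and 4.14 and 4.46 in WT for isolated ones. Local background reached 2 times the genome background or more in some library at 45.4% of dense regions, 25.6% of regions in chains of 2 or 3 and 12.2% of isolated regions. Without all regions of that kind the height difference was 0.03 (0.00 to 0.07 over the libraries).

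**Figure D2:**
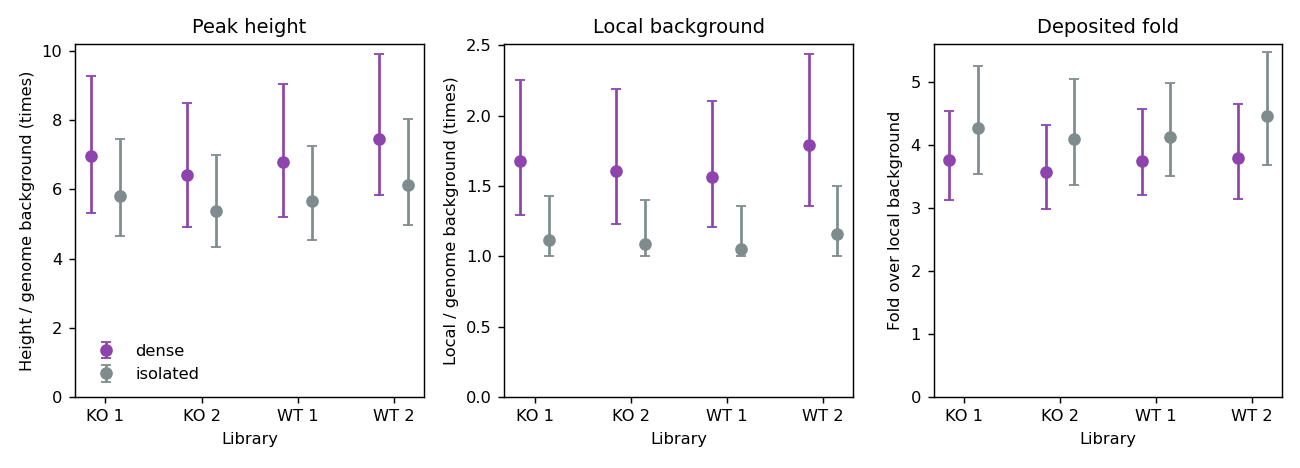
Median (points) and quartiles (bars) over 2453 regions in dense clusters and 14790 isolated distal regions, in each library, of peak height and local background as times the genome background and of the deposited fold. Dense regions have the higher height and local background and the lower fold in all 4 libraries.

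Height was spread over the regions of a cluster. In clusters of 4 the tallest region held a median 33.0% of the summed height. The same region was the tallest in all 4 libraries in 239 of the 525 clusters (45.5%). Of the 50 clusters with the highest summed height, 36 were the same in all 4 libraries.

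The 4.5S array stood above every other cluster. Of its 8 and 10 regions, 13 held the first 30 bases of Rn4.5s, 8 in the Ezh2 cluster and 5 in the Pdia4 cluster, and 0 other distal regions open in all 4 libraries did. Neighbouring copies in the Ezh2 cluster followed each other every 4321 bp in the median (4308 to 4340 bp). Summits lay a median of 72 bp upstream of the copy's start (54 to 244 bp). Over 200 bases around the start the copies were 99 to 100% identical to the annotated one.

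At the 13 copies the height ran from 189 to 226 read ends in KO replicate 1 and 187 to 229 in KO replicate 2, against 179 to 217 in WT replicate 1 and 202 to 247 in WT replicate 2. The ranges of the libraries overlapped throughout. The local background there was 9.77 to 16.5 times the genome background in the KO libraries and 10.3 to 19.4 times in the WT libraries. The tallest copy ranked 8th and 12th among all distal regions open in every library in KO, and 8th and 9th in WT. Reads of copies this similar may not be assigned to one of them, so the height of a single copy is uncertain. The last region of the Pdia4 cluster was lower and overlapped Rny1, the gene of a Y RNA bound by the Ro protein, with 65 and 73 read ends in KO and 51 and 73 in WT.

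**Figure D3:**
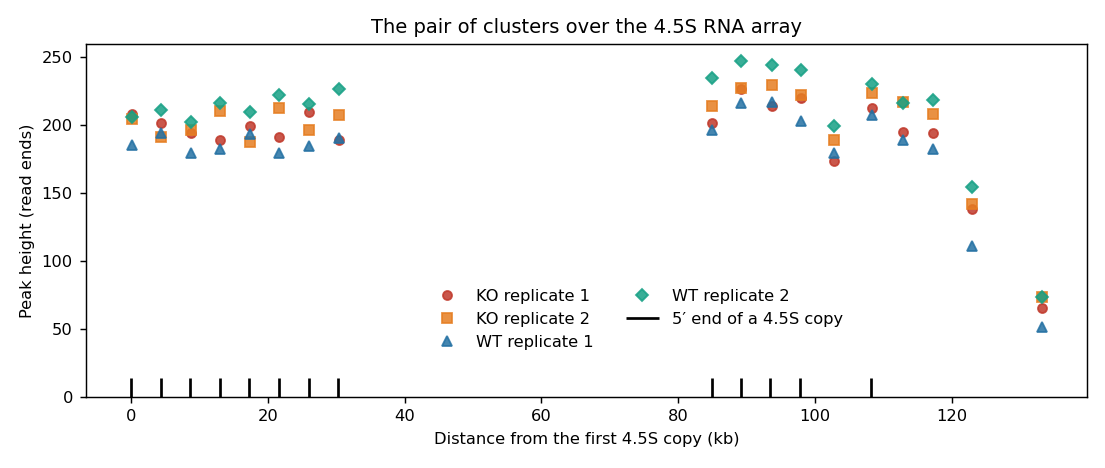
Peak height in read ends (vertical axis) of every region of the Ezh2 and Pdia4 clusters against the distance of their summits from the first 4.5S copy in kb (horizontal axis), 1 symbol per library. Black ticks mark the 5′ ends of the 13 copies, over which heights lie between 179 and 247 read ends.

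Arrays of other small RNA genes were lower. In the U1 cluster the 6 heights ran from 75 to 101 and from 85 to 112 read ends in the KO libraries, against 69 to 89 and 92 to 128 in the WT libraries, with a summed height of 92.5 ± 9.19 times the genome background (SD, n = 4 libraries). All 6 regions were near-copies of one another, so their single heights are uncertain too. Other clusters, named here after their values were seen, held 4 U2 genes at 4 of 5 regions (nearest gene Mreg) and 4 U3 genes at 4 of 4 regions (Tex14). U3 is the small nucleolar RNA that guides cleavage of pre-ribosomal RNA. At the U3 genes the heights were 82 to 116 and 103 to 133 in the KO libraries, against 60 to 83 and 87 to 125 in WT. The cluster nearest to Hfe2 combined 2 U1 and 5 tRNA genes over 4 regions.

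The tRNA clusters were lower still. In the Abt1 cluster the 5 heights ran from 52 to 83 and from 57 to 89 read ends in the KO libraries, against 34 to 63 and 48 to 88 in WT, with a summed height of 51.8 ± 3.73 times the genome background (SD, n = 4 libraries). The Trim27 cluster held 8 tRNA genes in 5 regions, the Trim7 cluster 6 in 5 and the Fcgr4 cluster 5 in 4. The letters GTTCGANNC were searched on both strands over the whole of each region. They were found in 20 of the 23 members that overlap a tRNA gene and in 51 of the other 2430 (2.10%). In isolated regions the counts were 29 of 37 and 1.59%. In all, 18 clusters had at least 1 region at a small RNA gene and 10 had at least 2. Without the clusters over such genes or with copies, 2349 regions remained and the height difference from isolated regions was 0.26.

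The clusters that hold Mir9-3 and Mir9-2 were among the 10 highest by summed height, and the cluster that holds Mir9-1 was not. Mir9-3 lay in the Polg cluster, 10 regions over 61.9 kb, and its nearest region, with a summit 365 bp away, had 68 and 85 read ends in KO replicates 1 and 2, against 54 and 78 in WT replicates 1 and 2. Mir9-2 lay in the Mef2c cluster, 6 regions over 30.7 kb, and its nearest region had 89 and 76 read ends in KO, against 50 and 95 in WT. Mef2c encodes a MADS-box factor of neurons and muscle, and the cluster began 140 kb from its start. Mir9-1 lay in the cluster nearest to Rhbg, an ammonium transporter, with 7 regions, and its nearest region had 62 and 82 read ends in KO, against 55 and 71 in WT. Relative to the library medians, the log2 differences between KO and WT were 0.11 (SE 0.23) at Mir9-3, 0.14 (SE 0.23) at Mir9-2 and 0.07 (SE 0.23) at Mir9-1 (limma, adjusted p = 1.00 for each, over all regions open in all 4 libraries).

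Windows of 100 bp on either side of these summits were 71.6%, 55.2% and 62.2% G and C for Mir9-3, Mir9-2 and Mir9-1. The Polg and Mef2c clusters ranked among the 10 highest by summed height, at 108 ± 4.34 and 89.3 ± 4.48 times the genome background (SD, n = 4 libraries). Of 919 autosomal hairpin entries 15 (1.63%) lay in a span. They included Mir23a, Mir27a and Mir24-2, which form 1 microRNA cluster near Nanos3. Some of the 15 entries overlap one another and are not separate genes.

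**Figure D4:**
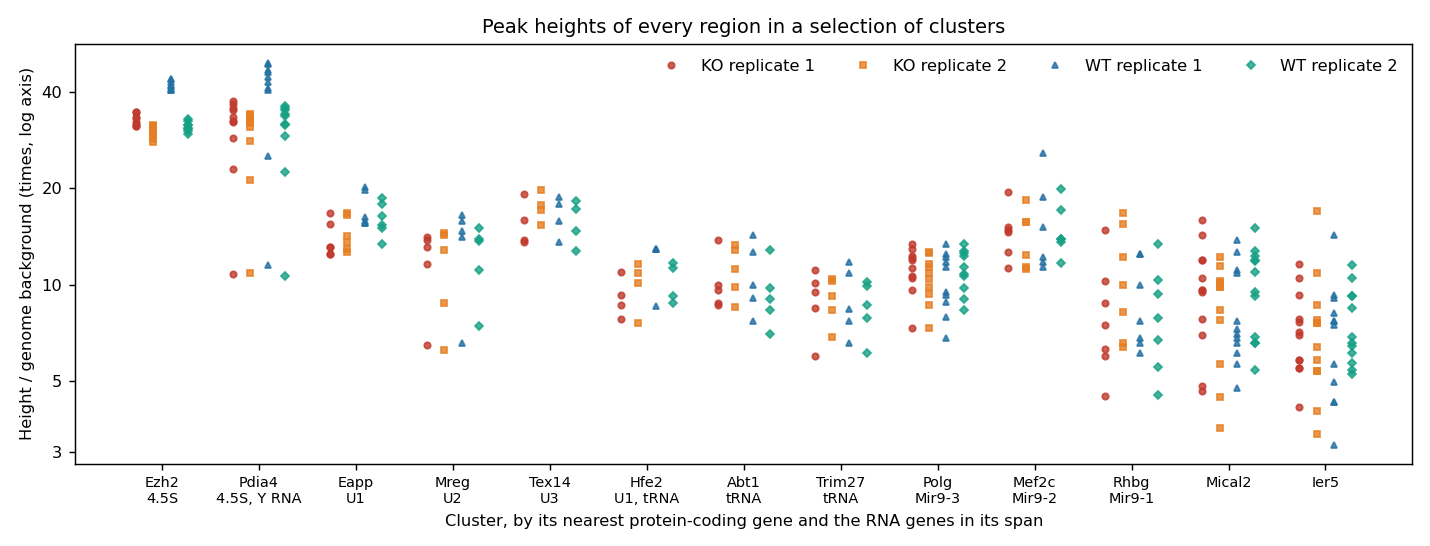
Height over genome background (vertical axis, log scale) of every region in a selection of clusters (horizontal axis, nearest coding gene and RNA genes in the span), 1 symbol per library. The 4.5S copies reach up to 49.2 times the background and stand above the regions of the other clusters shown.

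The 2 clusters with most regions, 12 each, held no small RNA gene. One ran over 77.5 kb of chromosome 7 and across the start of Mical2, which encodes an oxidase that acts on actin, and 5 of its 12 regions were nearest to Dkk3, a secreted Dickkopf family protein. Its summed height was 118 and 104 times the genome background in KO replicates 1 and 2, against 100 and 119 in WT replicates 1 and 2. The regions ran from 28 to 96 and from 24 to 82 read ends in KO, against 21 to 61 and 37 to 103 in WT. The highest held a mean of 12.9% of the sum.

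The other lay 16.1 to 92.8 kb from Ier5, an immediate early response gene, over 77.7 kb of chromosome 1. Its summed height was 87.6 and 89.8 times the genome background in KO, against 86.1 and 91.3 in WT (88.7 ± 2.30, SD, n = 4 libraries). RefSeq lists enhancers at 2 of its 12 regions. Clusters of 10 regions lay nearest to Prss52, a serine protease, to Herpud2 and Sept7, to Ccdc190 and Rgs4, an inhibitor of G protein signalling, and to Scaf8. Clusters of 9 lay nearest to Poc1a and Dusp7, a phosphatase of ERK, to Chd2, a chromatin remodeller, and to Camk2n1, an inhibitor of CaM kinase II.

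Sequence letters of most factor motifs were about as frequent as in isolated regions, with some higher and some lower. AP-1 letters were counted as TGANTCA with any middle base, which is looser than the TGACTCA or TGAGTCA site of FOS and JUN dimers. They were within 100 bp of the summit in 13.0% of dense and 13.5% of isolated regions. The E-box CAGATG was found in 24.4% and 25.1%, the SOX letters ACAATG in 7.26% and 8.63% and the proneural E-box CAGCTG in 19.3% and 17.1%. Letters of RFX (GTTGCCA) were in 5.42% and 4.06%, and the cAMP response element TGACGTCA in 0.775% and 0.325% (19 and 48 regions). Summit windows had a median of 51.2% G and C in dense and 48.8% in isolated regions, and its part in these shares was not tested. RUNX letters (TGTGGTT) were in 4.93% and 3.97%, but in 4.30% of dense regions (104 in place of 121) without those that copy another of their cluster. Matches on both strands were counted, are descriptions, and were not tested.

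Within single clusters 1 motif could recur. AP-1 letters were in 5 of the 10 regions of the cluster at Ccdc190 and Rgs4, and CAGATG in 6 of the 12 regions of the cluster at Mical2 and Dkk3, the highest count of each motif in 1 cluster. These were picked because they recur. In the cluster at Ccdc190 and Rgs4, regions 4 and 5 below carry TGATTCA and TGAATCA, which lie outside the stricter FOS and JUN site. On GRCm38 the windows are chr1:169817117-169817157, chr1:169822190-169822230, chr1:169833543-169833583, chr1:169859375-169859415 and chr1:169879224-169879264, plus strand, with the AP-1 letters in capitals.
Ccdc190 AP-1 region 1: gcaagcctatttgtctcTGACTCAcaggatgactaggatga
Ccdc190 AP-1 region 2: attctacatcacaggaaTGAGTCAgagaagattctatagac
Ccdc190 AP-1 region 3: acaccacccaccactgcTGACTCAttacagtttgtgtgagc
Ccdc190 AP-1 region 4: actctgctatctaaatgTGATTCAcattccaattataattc
Ccdc190 AP-1 region 5: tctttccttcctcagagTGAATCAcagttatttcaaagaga

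In these 2 clusters 0 regions were copies of one another, unlike in the arrays. The CAGATG windows on the plus strand are chr7:112183506-112183546, chr7:112233655-112233695 and chr7:112239437-112239477, with the E-box in capitals.
Mical2 CAGATG region 2: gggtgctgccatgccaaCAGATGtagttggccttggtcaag
Mical2 CAGATG region 5: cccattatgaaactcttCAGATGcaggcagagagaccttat
Mical2 CAGATG region 6: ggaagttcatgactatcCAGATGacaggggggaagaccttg

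Genes of lists of cell types and pathways were looked up beside dense clusters. Over all autosomal coding genes 2.97% (617 of 20780) were the nearest gene of a member. Immediate early and AP-1 factors had 3 of 18, mature oligodendrocyte genes 2 of 15, endothelial genes 2 of 20 and cell cycle and MYC network genes 2 of 20. Oligodendrocyte precursor and proneural genes had 1 of 24, neural stem cell genes 1 of 23, neuronal genes 1 of 19, Hedgehog, Wnt, Notch and TGF-beta genes 1 of 26 and housekeeping genes 1 of 17. Lists of astrocyte (16 genes), mural (16), microglia and macrophage (20), T and NK cell (13), mesenchymal glioblastoma (19) and PDGF and receptor tyrosine kinase genes (24) had 0. With so few genes a list, none of these counts is read as a property of its list.

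Of the immediate early genes, Egr3, a zinc finger factor induced by growth signals, had 6 regions 55.8 to 93.2 kb away, summing to 56.1 and 53.2 times the genome background in KO, against 52.6 and 56.8 in WT. Nr4a1, an inducible orphan nuclear receptor, had 4 regions 7.81 to 14.9 kb away, summing to 52.6 and 53.9 in KO, against 56.2 and 55.3 in WT. The cluster at Fosb, an AP-1 subunit, and Ercc1 had 4 regions and summed to 39.7 ± 2.11 (SD, n = 4 libraries). The sums overlapped between genotypes for Egr3 and were lower in both KO libraries for Nr4a1. Relative to the library medians the overlap was the other way round, as the mean log2 height at Egr3 was 0.30 and 0.33 in KO, against 0.17 and 0.20 in WT, and at Nr4a1 it overlapped, with 0.93 and 1.02 in KO, against 0.96 and 0.90 in WT.

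Cdh5, the cadherin of endothelial junctions, had a cluster of 7 regions 50.5 to 78.5 kb away, summing to 53.3 and 50.5 times the background in KO, against 51.9 and 56.7 in WT. A second cluster of 5 regions lay 9.94 to 35.5 kb from Cdh5 and summed to 26.39 and 26.97 times in KO, against 23.56 and 24.97 in WT. Emcn, another endothelial surface gene, had a low cluster shared with Ddit4l. Promoter peaks in all 4 libraries were present at 61.9% of all autosomal coding genes. They were few for endothelial genes, at 5 of 20, microglia genes, at 3 of 20, and T and NK cell genes, at 0 of 13. Oligodendrocyte precursor genes had 19 of 24 and neural stem cell genes 20 of 23. Such high counts were not particular to these lists, as neuronal genes had 17 of 19, immediate early factors 18 of 18 and housekeeping genes 16 of 17. Mural genes had 5 of 16, mature oligodendrocyte genes 8 of 15 and astrocyte genes 10 of 16. The nearest coding gene of a cluster need not be its target. Among the neural genes, Mbp and Mobp of myelin, Snap25 of synaptic vesicle fusion, Sox10 of the oligodendrocyte lineage, Id3, an inhibitor of bHLH factors, and Gli2, the Hedgehog effector, each had 1 cluster of 4.

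Myc, singled out by the study for a promoter it reports as more accessible in cells from WT hosts, was the nearest gene of 0 members. It had 5 distal regions open in all 4 libraries, in chains of at most 2, and the nearest member was 4131 kb away. A segment of chromosome 15 around it with raised local background in both KO libraries (61858247 to 63665766) likewise held 0 members among its 17 regions open in all 4 libraries. The segment was found by a scan of the KO libraries alone, and the WT libraries were not scanned.

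The question of the series was whether the host genotype altered chromatin of the tumors. No difference between genotypes was detected for the dense clusters as a group. For each member the KO minus WT difference in log2 height, relative to each library's median region, was taken. The median of these differences over the 2453 members was -0.01 (exact permutation, two-sided, p = 1, n = 2 per group, where the lowest possible p is 0.333). On heights over genome background, without centring, the median was -0.11 over members and -0.10 over all regions. There 31.2% of members and 31.7% of all regions were higher in KO. After centring the shares were 47.7% and 49.2%. The SD over members of the KO minus WT log2 height was 0.226, and over all 48089 regions it was also 0.226. The difference was within 0.5 of 0 in 2375 members (96.8%). Both KO libraries were above both WT libraries at 317 members (12.9%, against 12.8% of all regions) and below them at 380 (15.5%, against 13.3%).

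In the limma test across all 48089 regions, with Benjamini-Hochberg adjustment, 1 of the 2453 members passed an adjusted p of 0.05, higher in KO. Leaving out a library changed this count to 9 (KO replicate 1), 0 (KO replicate 2), 2 (WT replicate 1) or 0 (WT replicate 2). In all regions 19 (0.0395%) passed, 18 of them higher (0.0374%) and 1 lower in KO (0.00208%). That total was 3 without the 17 regions of the chromosome 15 segment, and was 105, 7, 52 and 42 without KO replicates 1 and 2 and WT replicates 1 and 2 in turn. At an unadjusted p under 0.05 were 72 members (2.94%), against 3.08% of all regions. Neither share of members stands out from its background. With 2 tumors per group these counts do not show that the clusters are alike in both genotypes.

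The member that passed lies 46.9 kb from Dynlt1b, a light chain of the dynein motor, on chromosome 17. It held 64 and 98 read ends in KO replicates 1 and 2, against 31 and 42 in WT replicates 1 and 2, and the groups do not overlap. The log2 difference relative to the library medians was 1.02 (SE 0.23, limma adjusted p = 0.0371). All 4 regions of the Dynlt1b cluster were higher in KO, with log2 differences of 0.73, 1.02, 0.23 and 0.84. The cluster mean was 0.70 and 0.68 in KO, against 0.06 and -0.08 in WT. Every region was higher in KO in 26 of the 525 clusters and higher in WT in 50. Cluster means did not overlap between genotypes in 58 clusters with KO higher and in 86 with KO lower. The same counts were not made for shorter chains or other groups of regions. Neither imbalance is therefore read as a property of dense clusters. The Dynlt1b cluster was named for its low p, so the shared direction of its regions is a description. At the region that passed, the local background was also higher in KO, at 2.51 and 3.32 times the genome background, against 1.39 and 1.46 in WT. The same held at every other region of this cluster, in order along the chromosome. There it was 2.30 and 2.26 against 1.14 and 1.24, 3.07 and 2.99 against 2.00 and 2.14, and 2.79 and 2.78 against 1.83 and 2.05. The part of the local background in these differences was not tested. No member passed without KO replicate 2 or WT replicate 2, on heights over genome background, on the mean height of all peaks, with quantile normalization, with the replicate number as a block, without limma's trend, or with the chromosome 15 segment left out of the fit. In these settings the lowest adjusted p of any member ran from 0.0930 to 1 (limma), and it was 0.134 without the segment. The count was 9 without KO replicate 1 and 2 without WT replicate 1. Over all settings tried the lowest adjusted p of a member ran from 1.64e-05 to 1 (limma). The next members by p lay at Sox10 and Pick1 (limma adjusted p = 0.122) and at Wnt7b, a Wnt ligand (limma adjusted p = 0.176).

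Single tumors varied within their genotype. The mean log2 height of a cluster, relative to the library median, ranged over the 4 libraries by a median of 0.26, and by up to 1.56 in the cluster between Pick1 and Sox10. There it was -0.39 and 0.72 in KO replicates 1 and 2, against 0.34 and -0.84 in WT replicates 1 and 2, so that each genotype had a high and a low tumor. Sox10 is the factor that specifies oligodendrocyte lineage cells, and RefSeq lists enhancers at 3 of the 4 regions. The region 28.0 kb from Sox10 held 33 and 99 read ends in KO, against 48 and 32 in WT. Its local background was 1.11 and 2.81 times the genome background in KO, against 1.69 and 1.00 times in WT, and its part was not tested.

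The Wnt7b cluster ranged by 1.15, with 0.35 and 1.27 in KO and 0.60 and 0.12 in WT. Its first region held 33 and 93 read ends in KO, against 18 and 36 in WT, while its tallest held 145 and 147, against 137 and 144. Here too the local background moved with the height, at 1.38 and 3.23 times the genome background in KO and 1.23 and 1.28 times in WT at the first region, and its part was not tested. Over all 525 clusters KO replicate 2 was highest in 117 (22.3%) and lowest in 220 (41.9%). WT replicate 2 was highest in 132 (25.1%) and lowest in 121 (23.0%). Among the 12 clusters that ranged most, by contrast, KO replicate 2 was highest in 8 and WT replicate 2 lowest in 10.

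**Figure D5:**
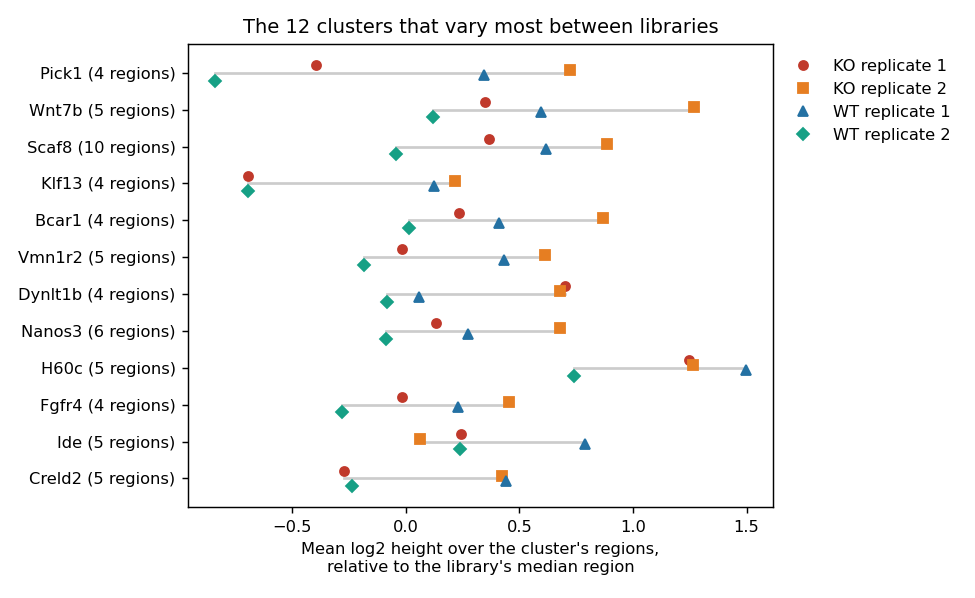
Mean log2 height over the regions of a cluster, relative to the library's median region (horizontal axis), in each library, for the 12 clusters with the widest range (vertical axis, nearest coding gene). KO replicate 2 is highest in 8 of them and WT replicate 2 is lowest in 10, and symbols are spread vertically for legibility.

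Of these clusters, 3 lay within 9.54 kb of the first assembled base of their chromosome, nearest to Vmn1r2 (chromosome 4), Scaf8 (chromosome 17) and H60c (chromosome 10). Their local background was a median of 2.53, 3.06 and 5.58 times the genome background, and the H60c regions were near-copies. Heights of the 10 Scaf8 regions were 29 to 106 and 54 to 153 read ends in KO, against 28 to 109 and 24 to 109 in WT. The cluster lowest in KO relative to WT lay nearest to Tmem267, by a log2 difference of -0.50, with heights at its first region of 63 and 75 read ends in KO, against 82 and 129 in WT, which did not pass (limma adjusted p = 0.994). The local background there was 4.27 and 4.45 times the genome background in KO, against 6.59 and 7.04 times in WT, and its part was not tested. Repeats masked 63.7% to 98.0% of the summit windows of this cluster.

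Spans of dense clusters also held 576 distal regions that were not open in all libraries. Of these, 246 (42.7%) and 259 (45.0%) were open in KO replicates 1 and 2, against 117 (20.3%) and 372 (64.6%) in WT replicates 1 and 2, the shallowest and the deepest library. A total of 13 (2.26%) were open in both KO and neither WT library, against 1.69% of all distal regions, and 13 (2.26%) in both WT and neither KO library, against 1.62%. The background counts regions open in all libraries too, which cannot be in either set. With the members included each set made up 0.429% of the 3029 distal regions in spans, and as the rule puts the members outside both sets, neither share is read against the background. The KO-only region with the highest lower fold lay near Cxxc5, and the WT-only one near Magi1.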

How the data were processed

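The libraries were ATAC-seq of 2 Esm1 KO and 2 WT tumors, grouped by sample title. Each library has its own peak list as deposited, called on that sample alone. Per the labels, the tools were MACS2 and HOMER with mm10 (no versions named), while the study's methods name Bowtie2 and Genrich. The columns follow MACS2. For every peak the authors deposited a ratio (the fold over the local background), the −log10 of its p-value and q-value, and a score. The lowest −log10 q was 1.30. A transposase shift of the reads is not described.

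Heights were recovered as whole read ends from the fold, (height + 1)/(background + 1), and the Poisson p-value, within 0.001 of the deposited −log10 p in all but 2 of 331481 peaks. Peaks sharing 1 bp or more were merged, and the tallest peak of a library gave a region's height. Coding starts were the 41533 starts of 21951 genes in GENCODE M21. Log2 heights, centred on each library's median, were fitted with limma 3.58.1 in R 4.3.3 (trended prior, Benjamini-Hochberg over 48089 regions). The median difference of members was tested by exact permutation of the genotype labels, also in R. Other steps were run with scipy 1.17.1 under Python 3.11.15. Scripts were tested on simulated data. A region without a peak in some library has no height and was not in the fit, and depth limits which regions are found. A copy shares at least 50% of its 20-mers with another region of its cluster. Clusters are named by their nearest coding gene. Named clusters were the 12 with most regions, the 10 highest in summed height, those of the 10 members with the lowest p, up to 4 for each gene list, and Myc. The rest were chosen after their values were seen, as were the sequences shown. A few loci and sequences are not reported here. Members, gene lists and motifs were chosen with earlier results of these data known. Alternatives were the chaining distance, cluster size, peak threshold, overlap, equal peak numbers, scaling, limma's trend, a replicate block and each library left out.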

Additional observations from a re-analysis of the deposited data

How the results depend on the processing

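The number of regions in dense clusters depended on every threshold. It was 171 with a chaining distance of 5 kb, 7832 with 25 kb, 5399 with chains of 3 or more and 563 with chains of 6 or more. It was 680 at a −log10 q of at least 5, 688 where each library's peaks had to cover 50% of a region and 1084 with equal numbers of peaks. With 1 library left out it ran from 2651 to 5380. Dense minus isolated log2 height ran from 0.28 to 0.30 with 1 library left out and reversed, to -0.19, on the deposited fold, which divides by the local background.

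The count of members that passed the KO against WT test was 0 on heights over genome background, with quantile normalization, without limma's trend, on the mean height of all peaks and without the chromosome 15 segment, an alternative chosen after seeing the data. With 1 library left out it ran from 0 to 9, the highest without KO replicate 1, and the lone library of a group was then assumed to vary like the others. On heights over genome background 25 members were higher and 66 lower in KO at an unadjusted p under 0.05 (limma), against 43 and 29 on centred heights. Both directions together were 3.71% of members, against 3.61% of all regions. On centred heights they were 2.94% of members, against 3.08% of all regions. The median log2 difference of members was -0.11 on heights over genome background. With 1 library left out it ran from -0.044 to 0.018 and reversed, to 0.018, without KO replicate 2. With the replicate number as a block 0 members and 10 regions in all passed. Nothing in the labels pairs the tumors, and the correlation of deviations between same-numbered libraries was -0.33 over the members. The crossed pairing, chosen after seeing the data, gave 9 members and 101 regions. Over all regions 3 passed without the segment, and 7 to 105 with 1 library left out. The cause of these changes was not tested. A region needs a peak in the shallowest library, so depth limits which clusters are found.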
